A study of Mus musculus with 43 samples.

Results

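Heat-shock chaperones were examined as 10 listed genes, Hspa1a, Hspa1b, Dnajb1, Hsph1, Hspa8, Hsp90aa1, Hsp90ab1, Hspe1, Hspd1 and Dnaja1, in sorted mouse CD4 T cells on 43 microarrays. They were chosen by name, with results of an earlier analysis of the same data known, the low Hspa1b of the group (int, day 10) among them, and each was read from the probe set with 1 gene symbol that had the highest mean over all arrays. By that rule 8 of the 10 were measured, among 22180 genes in all. Dnaja1 was listed only on a probe set with several symbols and Hsp90ab1 on none, and both were not analysed here. Of the measured genes, Hspa1a, Hspa1b, Dnajb1 and Hsph1 are taken as stress-inducible, Hsp90aa1 as partly inducible, Hspa8 as constitutive, and Hspe1 and Hspd1 as the mitochondrial pair.

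Chaperones bind unfolded or newly made proteins and help them reach or keep their shape. When unfolded proteins accumulate, through heat, oxidation or rapid protein synthesis, the factor HSF1 is released from chaperones, binds heat shock elements in promoters and switches on inducible chaperones, the Hsp70 genes Hspa1a and Hspa1b above all, while the Hsp70 relative Hspa8 is made in abundance at all times. In T cells such genes are known to respond to activation and also to the handling of living cells before lysis, as do the immediate early genes Fos and Jun.

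The T cells came from AND mice, whose transgenic receptor sees a moth cytochrome c peptide, were CD45.1+ and lacked Rag2. They had been transferred into iMCC recipients, where dendritic cells make the peptide while doxycycline is in the drinking water, at 100 µg/ml until day 3 in each iMCC group. From then until day 10 or day 30 the dose was 0 µg/ml for the none group, 10 µg/ml for low and 100 µg/ml for intermediate (int), and the off group followed the int schedule until day 10 and drank 0 µg/ml from then to day 30. The high group, sorted on day 10, came from cMCC recipients, whose MHC-II+ cells make the peptide constitutively, without doxycycline. The naive group holds AND cells taken on day 3 from recipients that carry no transgene. Recipients were given anti-CD40 before the transfer, to activate dendritic cells. The int and high groups on day 10 had 4 arrays each and the other 7 groups 5 each. Cells of day 30 were sorted in a later series than those of day 10, and the effects of day and series cannot be told apart. Whether arrays of a group come from separate animals is not stated in the labels, and the p-values below then rest on the spread of these samples alone, which may be technical. In bulk RNA, fewer cells with a transcript and less of it per cell cannot be told apart. Neither the time from tissue to Trizol nor the RNA input of each array, between 0.1 and 30 ng, is given in the sources used here.

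Hspa1a and Hspa1b are neighbours on chromosome 17, and their promoters are shown first because the results turn on these genes. They differed at 3 of the 250 bases before the start site. The Hspe1 promoter is shown for contrast, as that of a chaperone which varied little here. All are from RefSeq on GRCm38.p6, 5′ to 3′ on the strand of the gene, and capitals mark the letters GAANNTTC or TTCNNGAA, which are 2 facing or diverging units of the heat shock element. The windows lie at chr17:34959239-34959488 (minus strand) for Hspa1b, chr17:34972157-34972406 (minus strand) for Hspa1a and chr1:55087898-55088147 (plus strand) for Hspe1.
Hspa1b: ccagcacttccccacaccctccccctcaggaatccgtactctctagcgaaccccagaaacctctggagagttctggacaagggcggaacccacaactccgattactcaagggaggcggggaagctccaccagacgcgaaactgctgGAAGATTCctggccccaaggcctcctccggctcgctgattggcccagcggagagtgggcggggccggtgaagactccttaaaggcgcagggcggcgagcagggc
Hspa1a: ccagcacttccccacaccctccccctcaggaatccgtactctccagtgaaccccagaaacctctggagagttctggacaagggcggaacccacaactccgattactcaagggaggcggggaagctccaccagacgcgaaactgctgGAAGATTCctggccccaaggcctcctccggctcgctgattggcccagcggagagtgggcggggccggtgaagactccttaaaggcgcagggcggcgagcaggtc
Hspe1: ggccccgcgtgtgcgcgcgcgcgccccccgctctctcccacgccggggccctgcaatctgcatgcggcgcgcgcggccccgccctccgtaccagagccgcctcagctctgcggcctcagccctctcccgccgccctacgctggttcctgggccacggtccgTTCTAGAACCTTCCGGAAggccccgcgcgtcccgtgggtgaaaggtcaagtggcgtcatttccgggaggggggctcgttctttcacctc
Both Hsp70 promoters held the 2-unit match at bases -104 to -97 from the start site, and neither held the 3-unit form (GAANNTTC, then any 2 bases, then GAA) or the letters TATAAA. Hspe1 held 2 overlapping 3-unit matches, from -89 to -72, in a stretch it shares with the neighbouring Hspd1, which is read in the opposite direction. Hsph1 held a 3-unit match, TTCTGGAAAGTTC, at bases 37 to 49 after the first of its 2 listed start sites, and Dnajb1 held none of the 4 motifs at either of its start sites. Counting both strands and all 32817 windows of 300 bases around a start site, 0.6% held the 3-unit form, 15.05% either 2-unit form and 13.62% TATAAA. A match is a run of letters only. The promoter table held 7 of the 10 genes.

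Levels are log2 values of the deposited arrays, which ran from 1.46 to 13.87, and they are compared between arrays of the same gene only. Since low values approach the floor of the scale, differences that end there can be too small. Hspa1a and Hspa1b encode near-identical proteins from near-identical sequences, so a probe set of either may also catch the other. Array medians lay within 3.28 to 3.44, and neither quantile normalization nor centring moved the median difference of all genes by as much as 0.1. B cell and myeloid transcripts stood out in naive replicates 3 and 4, where the mean level of 11 B cell markers was 4.73 and 3.98, while the remaining naive arrays had 3.13 to 3.54. The T cell genes were high everywhere, the mean of 9 identity genes having group medians of 9.61 to 9.86.

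Hspa1b had the largest range of group means among the 8 genes, 5.95 log2 units. In none cells on day 10 its level was 5.5, 7.60, 7.04, 8.01 and 6.72, and in low cells 6.30, 6.56, 7.65, 6.74 and 7.42. In int cells it was 3.51, 4.07, 2.95 and 3.51. In high cells it was 6.05, 4.94, 3.62 and 3.61. None and low cells lay over each other, all int arrays lay below all of both, and high cells reached up into the none range with 1 array. On day 30 none cells stood at 5.16, 6.76, 6.87, 3.72 and 8.10, and low cells at 8.73, 9.14, 9.96, 9.38 and 10.08. Int cells stood at 7.86, 9.21, 8.16, 3.37 and 6.27, and off cells at 8.44, 7.57, 8.36, 8.63 and 8.23. Every low array was above every none and every off array, while int replicate 4 was down at the level of day 10 int cells. Naive arrays had 5.69, 5.63, 3.01, 3.87 and 5.41. From the highest mean to the lowest the order was low day 30 (9.46), off day 30 (8.25), int day 30 (6.97), none day 10 (6.97), low day 10 (6.93), none day 30 (6.12), naive (4.72), high day 10 (4.56) and int day 10 (3.51). The arrays of each group overlapped with those of the next in this order, except low and off on day 30. How many of all genes separate low from off cells was not counted.

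Hspa1a, the twin gene, ordered the groups much alike at its own lower values. Its level was 4.22, 6.22, 6.0, 7.22 and 5.85 in none cells on day 10 and 2.61, 2.57, 3.11 and 2.91 in int cells, again without overlap. On day 30 it was 2.92, 4.07, 4.39, 3.61 and 5.20 in none cells and 6.39, 8.40, 8.97, 7.97 and 8.54 in low cells. Off cells had 6.38, 6.73, 5.97, 7.83 and 7.63, and int cells 7.48, 7.80, 6.81, 2.54 and 6.49. All low and off arrays lay above all none arrays, and int replicate 4 lay below them. Naive cells averaged 3.94 ± 0.59 (SD, n = 5). Only the int group on day 10, last in the order, did not overlap with its neighbour, the naive group, as for 5.69% of all genes in that comparison.

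**Figure D1:**
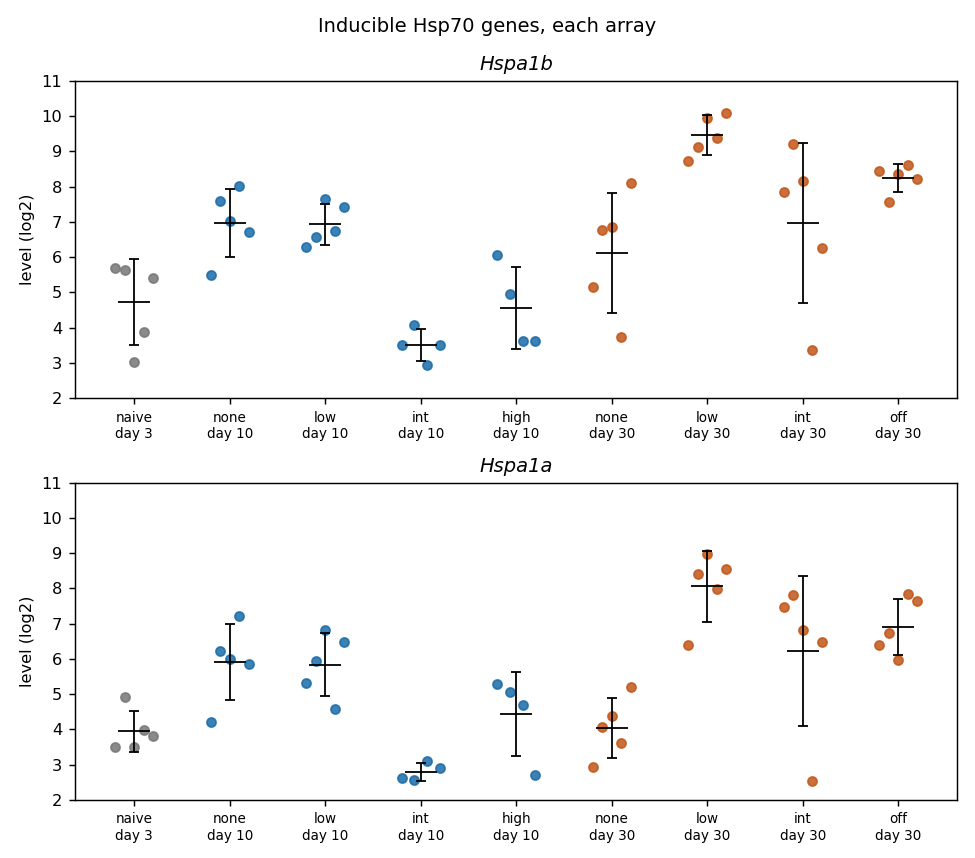
Levels of Hspa1b and Hspa1a (log2, vertical axis) on each array (points) in 9 groups, with the group mean and SD (bars). Day 10 int arrays are the lowest group of both genes, at 2.95 to 4.07 for Hspa1b, and day 30 low arrays the highest, at 8.73 to 10.08.

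For int against none on day 10 the difference of Hspa1b was known before the genes were chosen, so it is described without a test. Hspa1b was 3.46 ± 0.73 (SE) log2 units lower in int cells, or 11-fold, and Hspa1a 3.10 ± 0.67 lower. Dnajb1, the J-domain partner that delivers substrates to Hsp70, was 0.66 ± 0.19 lower, at 5.68 to 5.80 against 5.91 to 6.90. These 3 genes were those of the 8 whose groups did not overlap, as for 4.83% of all genes; the difference of the other 5 was at most 0.26 in size. Limma called 1.24% of all genes in this comparison. High cells differ from none cells in recipient and doxycycline as well as antigen, and these cannot be told apart. Against none cells on day 10 Hspa1b differed in high cells by -2.42 ± 0.73 (limma adjusted p = 0.0401), the single call among 8 genes against 5.25% of all genes called. That call ended under quantile normalization (adjusted p = 0.0554) and on leaving out any of high replicates 3, 4 and 5 or none replicates 2, 3, 4 and 5 in turn (up to 0.147). Hspa1a differed by -1.46 ± 0.67 (adjusted p = 0.247) and Dnajb1 by -0.56 ± 0.19 (adjusted p = 0.0754). Low antigen on day 10 gave no call among the 8, nor almost any at all (0.00451% of genes): Hspa1b differed by -0.04 ± 0.69 and Hspa1a by -0.07 ± 0.63, errors that leave room for differences of over 1 log2 unit either way. High and int cells, both under lasting antigen but unlike in recipient and doxycycline, differed by 1.64 ± 0.70 for Hspa1a (adjusted p = 0.269) and 1.05 ± 0.77 for Hspa1b (adjusted p = 0.64). There was no call among the 8 (2.99% of all genes).

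On day 30 the inducible Hsp70 genes were higher in low than in none cells, which differ by 10 µg/ml of doxycycline from day 3 on. Hspa1a was higher by 4.02 ± 0.63, or 16.2-fold (limma adjusted p = 0.000149), the largest difference in size of all 22180 genes in this comparison. Hspa1b was higher by 3.34 ± 0.69, or 10.1-fold (adjusted p = 0.0071), the fifth in size. Hsp90aa1, the inducible form of cytosolic Hsp90, had levels of 7.32, 7.61, 7.61, 7.33 and 7.32 in low and 7.14, 6.81, 6.86, 6.55 and 6.83 in none cells. Its arrays did not overlap either, and it rose by 0.60 ± 0.13 (adjusted p = 0.00847), a call that ended when limma was fitted to these groups alone (adjusted p = 0.286). So 3 of 8 were called, all higher, against 0.654% of all genes (0.388% higher), and on leaving out each array in turn all 3 calls remained. The groups of 4 of the 8, Hspa8 with them, did not overlap, against 1.66% of all genes. Dnajb1 differed by 0.26 ± 0.18 (adjusted p = 0.639), Hsph1, the Hsp110 that exchanges the nucleotide of Hsp70, by -0.10 ± 0.21 (adjusted p = 0.919), and Hspa8 by 0.09 ± 0.04 (adjusted p = 0.45).

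The off and int groups of day 30 were compared with the same none arrays, so their differences share that control. In off cells Hspa1a was higher by 2.87 ± 0.63, or 7.31-fold (limma adjusted p = 0.024), the second in size of all genes and the single call of the 8, against 0.266% of genes called. It was lost without any single array among none replicates 1 and 4 and off replicates 1, 2, 4 and 5 (adjusted p up to 0.0768), and with array weights (0.0555). Hspa1b differed by 2.12 ± 0.69 (adjusted p = 0.189) and Hsp90aa1 by 0.43 ± 0.13 (adjusted p = 0.146). The groups of Hspa1a, Hsp90aa1 and Hspa8 did not overlap, against 1.67% of all genes. The list means of markers of other cells were also higher in off cells. That of 18 myeloid markers was 3.96 to 4.47 against 3.67 to 3.93 in none cells. That of 11 B cell markers was 3.28 to 3.38 against 3.17 to 3.27, both without overlap. The median difference of single markers was 0.005 in the myeloid and 0.06 in the B cell list. An unadjusted limma p under 0.05 was found for 5 of the 18 and 2 of the 11, against 2470 of all 22180 genes. S100a8 and S100a9, made by neutrophils and monocytes, rose by 3.44 ± 0.79 (adjusted p = 0.0365, up to 0.12 on leaving out 1 array) and 2.87 ± 0.67 (adjusted p = 0.0458, up to 0.136). Cd22, a B cell receptor regulator, rose by 1.67 ± 0.34 (adjusted p = 0.0137, up to 0.0611), and these 3 were the called markers of the 29. Their part in the difference of Hspa1a was not tested. In int cells none of the 8 was called (2.21% of genes): Hspa1a differed by 2.19 ± 0.63 (adjusted p = 0.0518) and Hspa1b by 0.85 ± 0.69 (adjusted p = 0.665). These values hang on int replicate 4, without which the difference of Hspa1a was 3.11 and that of Hspa1b 1.75. That array was singled out by its own low levels, so a p-value without it is no test. Over all arrays left out in turn, limma's adjusted p ran from 0.000156 to 0.193 for Hspa1a and from 0.161 to 0.927 for Hspa1b. Off and int cells did not differ by a call in any of the 8 (0.464% of genes), with 1.27 ± 0.69 for Hspa1b (adjusted p = 0.712), or 0.37 without int replicate 4.

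Int cells themselves stood far apart between the days. The low Hspa1b of day 10 int cells was known when the genes were chosen, so this comparison too is described without a test. Hspa1b was higher on day 30 than on day 10 by 3.46 ± 0.73 and Hspa1a by 3.42 ± 0.67; limma called 0.712% of all genes here. Without day 30 int replicate 4 the differences were 4.36 and 4.34. The int effect, int minus none, was estimated below 0 on day 10 and above 0 on day 30 for both genes. On day 30 it was called for neither (2.19 ± 0.63 for Hspa1a and 0.85 ± 0.69 for Hspa1b), so a reversal is not established. The effect was larger on day 30 than on day 10 by 5.29 ± 0.92 for Hspa1a and 4.32 ± 1.01 for Hspa1b, first and second in size of all genes. This is given without a test because the day 10 difference is part of it; limma called 0.0902% of all genes for this change. For Dnajb1 this change was 0.83 ± 0.26, for Hsp90aa1 0.51 ± 0.18 and for Hspa8 0.08 ± 0.06.

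**Figure D2:**
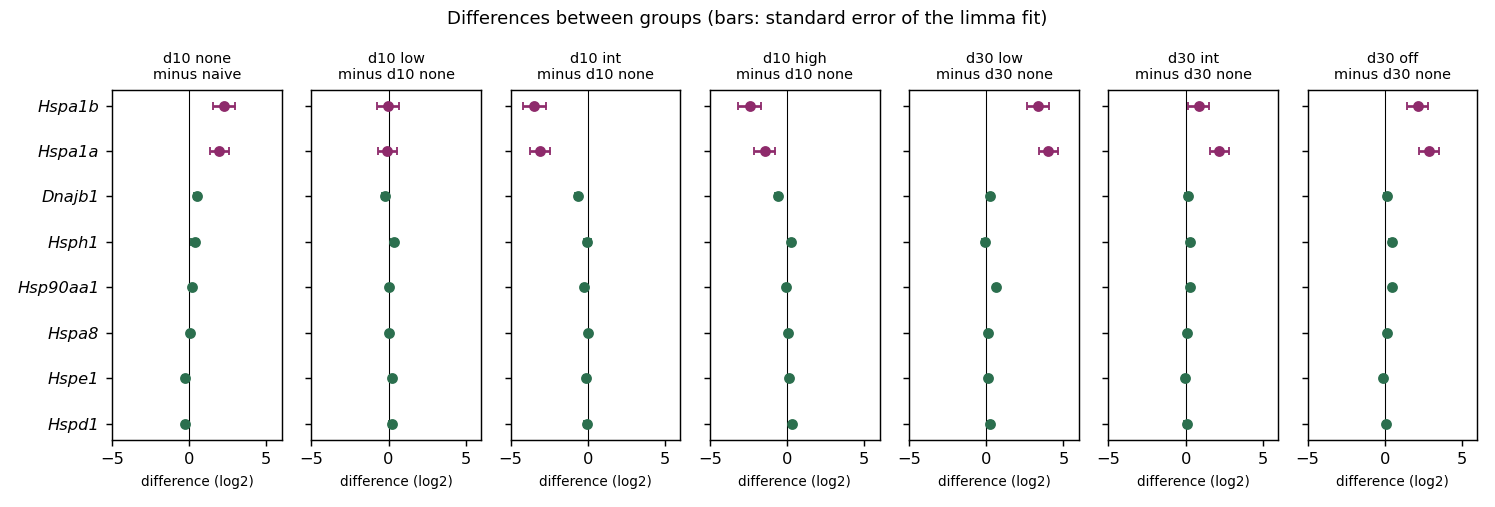
Differences between groups (log2, horizontal axes, 1 panel for each comparison) of 8 chaperone genes, as estimates and standard errors of the limma fit. Hspa1b and Hspa1a (purple) range from -3.46 to 4.02, near 0 in low against none cells on day 10 (d10), while the other 6 genes (green) stay within -0.66 to 0.60.

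Against naive cells, which differ from none cells in priming, day after transfer, recipient and doxycycline, Hspa1b was higher in day 10 none cells by 2.25 ± 0.69 (limma adjusted p = 0.0602) and Hspa1a by 1.96 ± 0.63 (adjusted p = 0.08), with no call among the 8 against 3.3% of all genes. Naive replicates 3 and 4, the arrays with B cell and myeloid transcripts, had the lowest naive levels of Hspa1b, 3.01 and 3.87. Hspa1a did not follow, at 3.50 and 3.98 on those arrays in a naive range of 3.50 to 4.93. Without those naive arrays, none replicate 4 and high replicate 2 the differences were 1.14 (adjusted p = 0.793) and 1.5 (adjusted p = 0.579). What those transcripts contribute was not tested. Leaving out none replicate 1 or naive replicate 2 brought both genes under the threshold (adjusted p from 0.032 to 0.0467). On day 30 none cells differed from naive cells by 1.40 ± 0.69 for Hspa1b (adjusted p = 0.288) and 0.10 ± 0.63 for Hspa1a (adjusted p = 0.965), and from day 10 none cells by -0.85 ± 0.69 (adjusted p = 0.55) and -1.86 ± 0.63 (adjusted p = 0.0869). Day 10 int cells differed from naive cells by -1.21 ± 0.73 for Hspa1b (adjusted p = 0.566) and -1.14 ± 0.67 for Hspa1a (adjusted p = 0.543), with no call among the 8 (3.15% of genes).

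Of the mitochondrial pair, each gene was called in a comparison of its own. Hspd1 (Hsp60) forms the folding chamber of the matrix and Hspe1 (Hsp10) its lid. Hspd1 stood at 8.99, 8.97, 9.16, 8.99 and 9.06 in naive cells and at 8.52, 8.50, 8.49, 8.37 and 8.56 in day 30 none cells. The groups did not overlap, as for 3.94% of all genes, and the fall of 0.55 ± 0.14 (limma adjusted p = 0.0109) was the single call of 8 against 4.33% of all genes. It remained on leaving out each array in turn. Hspe1 was at 9.32, 9.48, 9.34, 9.79 and 9.81 in day 10 none cells and 10.24, 10.19, 10.04, 9.71 and 9.61 in day 30 none cells. These groups overlapped, and the rise of 0.41 ± 0.12 (adjusted p = 0.0414), the single call against 3.43% of genes, ended on leaving out any of replicates 1, 2 and 3 of either day (adjusted p up to 0.128), with centring, without the variance trend and with these groups alone (0.164). Hspd1, which shares the promoter stretch shown above, differed between day 30 and day 10 none cells by -0.26 ± 0.14 (adjusted p = 0.308). In day 30 against day 10 int cells Hspe1 differed by 0.47 ± 0.13 and Hspd1 by -0.12 ± 0.14.

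**Figure D3:**
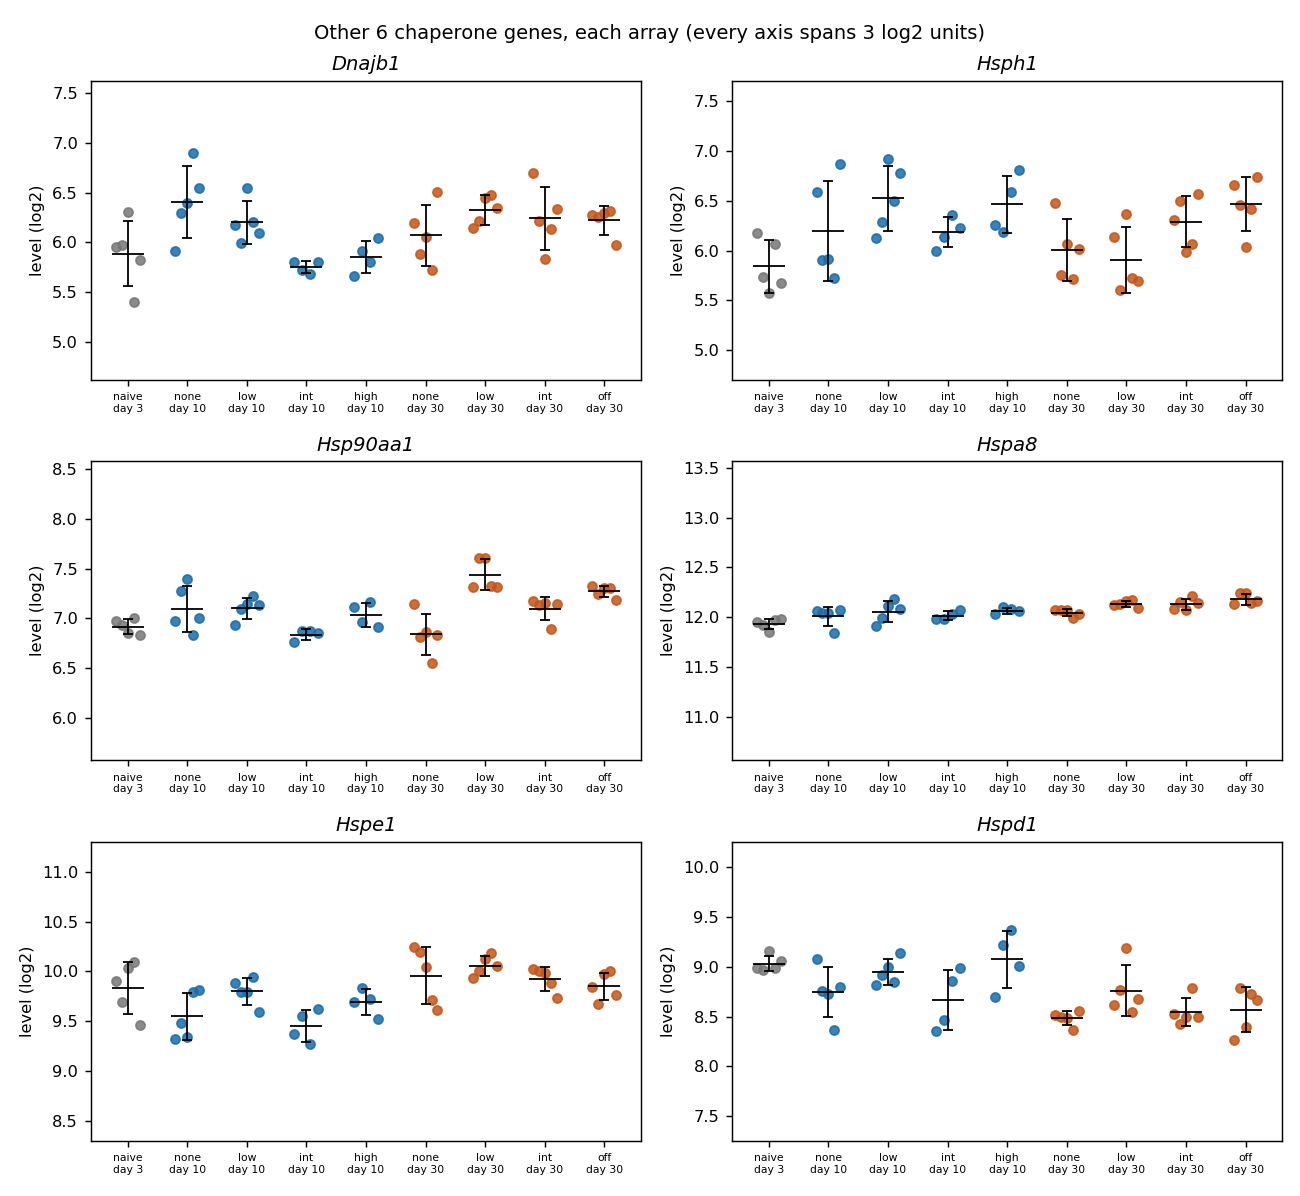
Levels (log2, vertical axes, each spanning 3 units) of the other 6 chaperone genes on each array (points) in 9 groups, with the group mean and SD (bars). Hspa8 stays within 11.84 to 12.24, Hsp90aa1 is highest in day 30 low cells, and Hspd1 is lower in day 30 none cells than in naive cells.

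Hspa8, the constitutive cytosolic Hsp70, hardly varied, from 11.84 to 12.24 over all arrays, and was called in no comparison. Being near the top of the scale, it could hide changes. Its 2 dimmer probe sets of 4 in all, with means of 10.42 and 8.75, ranged over 10.06 to 10.81 and 8.10 to 9.47, and did not put the day 30 groups above the naive group as the chosen one did. To set inducible against constitutive genes, the mean of Hspa1a, Hspa1b, Dnajb1 and Hsph1 minus Hspa8 was taken on each array, as a description. It is read here as differences between groups, since its level also depends on how bright each probe set is. Relative to naive cells this was higher by 2.14 in low and 1.61 in off cells on day 30, by 1.20 in none and 1.15 in low cells on day 10, by 1.14 in int and 0.35 in none cells on day 30 and by 0.09 in high cells, and it was -0.62 in int cells on day 10. With Hspa8 so steady and Dnajb1 and Hsph1 moving little, the measure follows the Hsp70 pair.

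The genes also differed in how far arrays of the same group lay apart. The pooled within-group SD was 1.21 for Hspa1b and 1.10 for Hspa1a, ranks 21 and 38 from the largest of 22180 genes, and 0.317 for Hsph1, 0.252 for Dnajb1, 0.205 for Hspd1, 0.187 for Hspe1, 0.141 for Hsp90aa1 and 0.063 for Hspa8. The median of all genes was 0.267. For Hspa1b the SD ran from 0.40 in off cells to 2.27 in int cells on day 30, and for Hspa1a from 0.26 in int cells on day 10 to 2.12 in int cells on day 30. Without day 30 int replicate 4 the pooled SD of Hspa1b was 1.01. By their spread between group means, Hspa1b and Hspa1a were ranks 6 and 15.

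**Figure D4:**
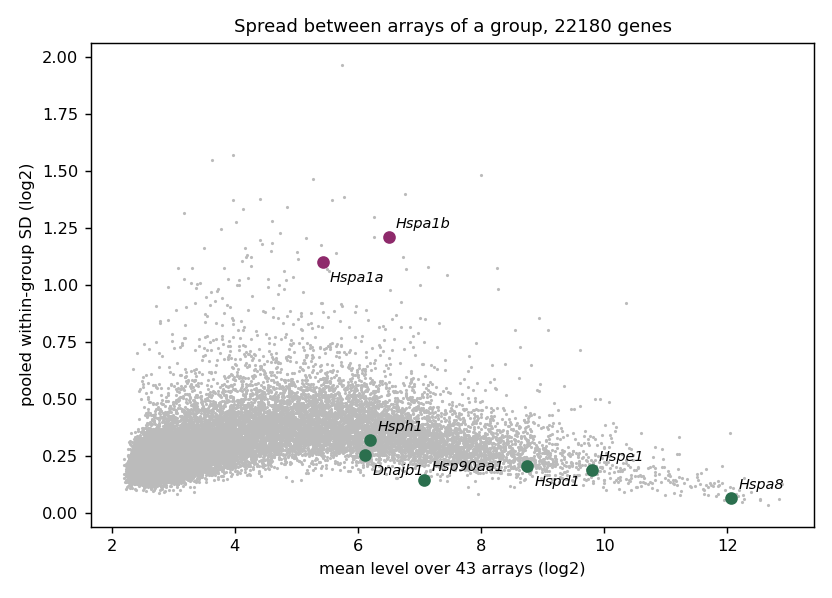
Pooled within-group SD (log2, vertical axis) against mean level over 43 arrays (log2, horizontal axis) for 22180 genes (grey), with 8 chaperone genes marked. Hspa1b and Hspa1a lie at 1.21 and 1.10, above most genes of like level, while Hsp90aa1 (0.141) and Hspa8 (0.063) lie low.

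Within groups, Hspa1a and Hspa1b went up and down together. Over deviations of 43 arrays from their group means Pearson's r was 0.76 and Spearman's rho 0.68 (permutation test within groups, p = 1e-05 for each, the smallest the resamples can give, adjusted p = 0.00015 over 15 relations). Without the 2 farthest arrays, day 30 int replicate 4 and none replicate 4, r was 0.66, and within day 10 and day 30 arrays it was 0.75 and 0.82; 5 naive arrays are too few for a value of their own. A shared signal of the probe sets cannot be told apart from joint expression. The other 6 genes followed Hspa1b weakly or not at all: r was 0.30 for Hsp90aa1 (permutation p = 0.105), 0.27 for Dnajb1 (0.198), 0.07 for Hspe1 (0.72), -0.03 for Hsph1 (0.859), -0.13 for Hspa8 (0.392) and -0.30 for Hspd1 (0.0245, adjusted 0.144). With Jun r was 0.41 (permutation p = 0.0688, adjusted 0.207) and with Fos 0.35 (p = 0.0288, adjusted 0.144), and within day 10 and day 30 arrays 0.47 and 0.42 for Jun and 0.45 and 0.42 for Fos. With the mean of 32 immediate early genes r was 0.12 (permutation p = 0.452), with 19 other HSF1 targets -0.17 (p = 0.383), with B cell markers -0.30 (p = 0.05), with myeloid markers -0.17 (p = 0.351), with the cold-induced Cirbp -0.01 (p = 0.961) and with the array median 0.08 (p = 0.6). After adjustment over the 15 relations the pair with Hspa1a alone stayed below 0.05. Of all named genes Hspa1a was most like Hspa1b by this r, followed by Garem1 (0.60), Olfr914 (0.59), Vmn2r1 (0.59), Vmn1r82 (0.58), Olfr661 (0.56), Adarb2 (0.55), Olfr667 (0.55), Msx2 (0.54) and Pold3 (0.54). Apart from Pold3, at 5.88, these 9 have mean levels of 2.41 to 4.04, near the floor.

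**Figure D5:**
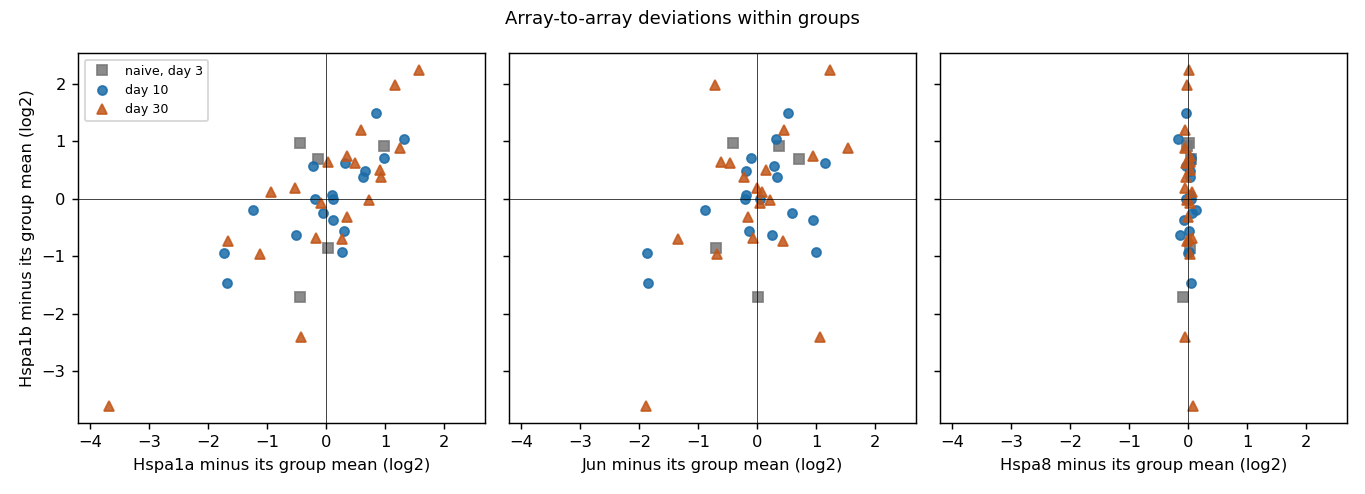
Deviation of Hspa1b from its group mean (log2, vertical axis) against that of Hspa1a, Jun and Hspa8 (log2, horizontal axes) on 43 arrays; squares are naive, circles day 10 and triangles day 30 arrays. Points rise together for Hspa1a (r = 0.76), more loosely for Jun (r = 0.41), and form an upright band for Hspa8 (r = -0.13).

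Other HSF1 targets were counted in the same comparisons. Where Hspa1a and Hspa1b rose most, in low against none cells on day 30, 0 of 19 such genes were called by limma, against 0.654% of all genes. An unadjusted limma p under 0.05 was found for 0 of the 19, against 2443 of all 22180 genes. The 19 had a median difference of 0.07 beside 0.00 over all genes. In none against naive cells on day 10, 1 of 19 was called, against 3.3% of all genes: Bag3, the co-chaperone that hands Hsp70 substrates to autophagy, rose by 1.27 ± 0.25 (adjusted p = 0.0009). Its level was 4.30 ± 0.25 (SD, n = 5) in naive cells and 5.58 ± 0.30 (n = 5) in none cells. It also rose from naive to day 10 int cells, by 1.23 ± 0.27 (adjusted p = 0.00309), where the Hsp70 pair was lowest. Hspa4l, an Hsp110 relative, rose in high against none cells (1.38 ± 0.31, adjusted p = 0.00268). Hspb1, the small chaperone Hsp27, was called in none of the 14 comparisons, with differences of -0.28 to 0.25. Of 29 cytosolic co-chaperones, St13, which steadies Hsp70 bound to its substrate, was the one most often called. It fell in none against naive cells on day 10 (-0.67 ± 0.16, adjusted p = 0.0102, up to 0.0724 on leaving out 1 array). It was also lower on day 30 (-0.80 ± 0.16, adjusted p = 0.00153, up to 0.0109). St13 was higher than in none cells under high (1.28 ± 0.17, adjusted p = 7.95e-07) and int antigen (0.85 ± 0.17, adjusted p = 0.00263) on day 10 and int antigen on day 30 (0.89 ± 0.16, adjusted p = 0.000412). Of the chaperones of the endoplasmic reticulum, 6 of 18 were higher and 0 lower in high than in none cells, against 2.77% and 2.48% of all genes, with a median of 0.47 beside 0.01 over all genes. The calls of Hsp90b1, Calr, Pdia3 and Pdia6 were lost on leaving out 1 array (adjusted p up to 0.127, 0.0806, 0.145 and 0.3). P4hb rose by 1.17 ± 0.24 (adjusted p = 0.000751) and Sdf2l1 by 1.30 ± 0.28 (adjusted p = 0.00191). In low against none cells on day 30 none of these 18, of 13 TRiC and prefoldin subunits or of 12 mitochondrial chaperones and proteases was called. Hspa5 and Hspa9, the Hsp70 proteins of the endoplasmic reticulum and the mitochondria, were called in none of the 14 comparisons.

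Genes known to respond to handling were mixed. Jun had levels of 4.57, 7.58, 6.23, 6.74 and 7.01 in none cells on day 10 and 3.34, 3.83, 3.40 and 3.59 in int cells. Its groups did not overlap, and it fell by 2.89 ± 0.54 (limma adjusted p = 0.000892). Fos fell there by 1.5 ± 0.35 (adjusted p = 0.014, but up to 0.0692 on leaving out 1 array), while Egr1 and Nr4a1, early genes of receptor signalling, rose by 1.54 ± 0.34 (adjusted p = 0.00684, up to 0.0612 on leaving out 1 array) and 2.79 ± 0.29 (adjusted p = 6.43e-08). Of the 32 immediate early genes 2 were higher and 6 lower, against 0.784% and 0.46% of all genes. Besides Fos and Egr1, the falls of Socs3 and Myc lost their calls on leaving out 1 array (adjusted p up to 0.154 and 0.132). Ppp1r15a fell by 1.68 ± 0.31 (adjusted p = 0.000776, up to 0.00736 on leaving out 1 array). The fall of Sgk1 also remained (adjusted p = 0.000865, up to 0.0109). In none against naive cells on day 10, 5 of the 32 were higher and 3 lower, against 1.9% and 1.41% of all genes. Among markers of other cells, 0 of 11 for B cells and 1 of 18 for myeloid cells were called in int against none cells on day 10. The share of all genes called there was 1.24%. The B cell means were 3.20 to 3.43 in int against 3.06 to 3.22 in none cells. The myeloid means were 3.61 to 3.84 against 3.69 to 4.49. The called gene was Ly6c2, lower by 2.27 ± 0.48 (adjusted p = 0.00504, up to 0.0648 on leaving out 1 array). It stood at 10.67 in none cells but 5.98 in naive cells, where replicates 3 and 4 held myeloid transcripts. In low against none cells on day 30, 2 of the 32 immediate early genes were higher and 0 lower, against 0.388% and 0.266% of all genes. Dusp1, a phosphatase of MAP kinases, rose by 1.23 ± 0.26 (adjusted p = 0.00846) and Btg1 by 0.58 ± 0.14 (adjusted p = 0.0416, up to 0.147 on leaving out 1 array). An unadjusted limma p under 0.05 was found for 11 of the 32, against 2443 of all 22180 genes. There Jun differed by 0.89 ± 0.51 (adjusted p = 0.542), against 4.02 for Hspa1a. Over all groups Jun, like Hspa1b, had its highest mean in day 30 low cells (6.48) and its lowest in day 10 int cells (3.54). Between them lay none (6.43) and low (6.22) on day 10, off (6.11), int (5.67) and none (5.59) on day 30, high (5.04) and naive (4.92). The SD of Jun, as that of Hspa1b, was largest in day 30 int cells (1.54) and smallest in off cells (0.17). Fos was highest in day 10 none cells (5.25) and lowest in naive cells (3.7). The mean level of the 32 genes was 6.23 to 6.48 in low and 5.90 to 6.21 in none cells on day 30, without overlap. Among other-cell markers in this comparison 1 of 11 for B cells was called, against 0.654% of all genes. It was Cd22, which rose by 2.35 ± 0.34 (adjusted p = 4.93e-05). The means of the 11 were 3.25 to 3.46 against 3.17 to 3.27, and low replicate 2 (3.25) was the only low array within the none range. The median difference of the single markers was -0.04. There were 0 of 18 myeloid markers called with means of 3.84 to 3.92 against 3.67 to 3.93. Whether other cells had a part in the rise of the Hsp70 pair was not tested. Day 30 int replicate 4, lowest of its group for Hspa1a and Hspa1b, was also lowest for Jun (3.78), Fos (3.54) and the mean of the 32 genes (6.16), and lowest for Hsp90aa1 (6.89) but not for Dnajb1 (6.13). Hmox1, a gene of oxidative and metal stress, was higher in off than in none cells (2.13 ± 0.28, adjusted p = 1.34e-05). In low against none cells on day 30, 0 of 10 genes of its list were called, against 0.654% of all genes. The part of handling in the levels of the Hsp70 pair was not tested: the files hold no sample that differs in handling alone.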

How the data were processed

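RNA of sorted CD4 T cells (RNA integrity above 8, amplified by Ovation Pico WTA V2 and labelled by Encore Biotin, per the labels' protocols) was measured on 43 arrays. The authors deposited log2 values of 41345 probe sets, used as deposited; the scale was judged from the values, and how background, summarization and normalization were handled is not given in the sources used here. Of the probe sets 23521 had 1 symbol, 1814 several and 16010 none; the highest mean probe set of each symbol gave 22180 genes, without an intensity filter.

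limma 3.58.1 (R 4.3.3; lmFit, eBayes with trend) was fitted to all arrays together, 1 mean per group for 9 groups. A gene was called where its p, adjusted after Benjamini and Hochberg over all genes, was under 0.05. Differences are log2 ± SE. Int minus none on day 10 was not tested for the chaperones, being known beforehand. The change of that effect by day 30 was first tested, and its p-values for the chaperones were withdrawn after they had been seen, since it holds the same difference. Int on day 30 against day 10 was tested as planned, but its p-values are not used, since the low day 10 arrays were known. Int on day 10 against naive or high cells shares those arrays, so those p-values are not independent of the choice either. The inducible minus constitutive level was planned as a level per array, and is given relative to naive cells by a choice made after its alternatives had been seen. Correlations used 100000 permutations within groups (Python 3.11.15, scipy 1.17.1), and both scripts were tested on simulated data. The genes, the lists and the tests were chosen with earlier results of these data known, so no p is independent evidence for the choice. Named genes were the 10 listed ones, up to 4 called genes per list and comparison with the largest difference, the 10 most like Hspa1b leaving out Gm, Rik and LOC names, and Fos, Jun, Atf3, Dusp1, Egr1, Bag3, Hspb1, Hsf1, Cirbp, Rbm3, Hspa5 and Hspa9; from these, examples were picked after their values were seen. Hsf1 and Rbm3 were not analysed here. Other normalizations, probe sets, filters, fits and sets of arrays were tried.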

Additional observations from a re-analysis of the deposited data

Results flagged for a closer look

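Arrays were examined for a gap to the rest of their group, over 108 pairs of a group and a measure (the 8 chaperone genes, Jun, Fos, Dusp1 and the inducible minus constitutive level). A gap past Dixon's critical value was found in 6, and chance gives about 1 in 20. Day 30 int replicate 4 accounted for 3 of them: it was lowest for Hspa1a (2.54, the others 6.49 to 7.80) and for Hsp90aa1 (6.89, the others 7.13 to 7.17), and highest for Hspd1 (8.79, the others 8.43 to 8.53). Day 10 none replicate 4 was lowest for Hspa8 (11.84, the others 12.04 to 12.07). Day 10 none replicate 1 was lowest for Fos (3.63, the others 5.32 to 5.99). Day 30 off replicate 5 was lowest for Dnajb1 (5.97, the others 6.25 to 6.32).

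The int minus none difference of Fos was higher on day 30 than on day 10, by 2.33 ± 0.48 log2 units in limma's test of the change itself (adjusted p = 0.0241). Both groups moved: none cells averaged 5.25 on day 10 and 3.71 on day 30, and int cells 3.74 and 4.54. Day and sorting series cannot be told apart. Leaving out each array in turn gave adjusted p-values from 0.00129 to 0.0842.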

How the results depend on the processing

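The number of the 8 chaperone genes that limma called depended on the settings where few were called. In none against naive cells on day 10 it was 0, and 2 with array weights, with genes above the median level or with these groups alone, 1 with the replicate block, and 0 to 3 on leaving out an array. In none cells on day 30 against day 10 it was 1, but 0 with median centring and without the variance trend, and 0 to 1 on leaving out an array; with these groups alone Hspe1 was lost (adjusted p = 0.164) and Hspa1a came in (0.0476). In high against none cells it was 1, but 0 with quantile normalization, 2 with genes above the median level, and 0 to 2 on leaving out an array. In int against naive cells on day 10 it was 0, and 1 with quantile normalization, the replicate block or these groups alone, and 0 to 1 on leaving out an array. In high against int cells it was 0, and 1 without the 4 arrays that carry transcripts of other cells. On day 30 it was 0 for int against none, and 1 with genes above the median level or the replicate block (0 to 1 on leaving out an array), and 1 for off against none, 2 without the variance trend and 0 with array weights (0 to 1). For int on day 30 against day 10, which supports nothing here because the low day 10 arrays were known beforehand, it was 2 (Hspa1a and Hspa1b), 1 to 2 on leaving out an array, and 1 with these groups alone, where both were lost (adjusted p = 0.0594 and 0.0774) and Hspe1 came in (0.0496). The level of inducible minus constitutive genes in day 10 int against naive cells was -0.62, -0.71 with quantile normalization, -0.86 without the 4 arrays, and -0.72 to -0.50 on leaving out an array. No value changed sign under any alternative where it was called. Given as planned, as a level per array, inducible minus constitutive averaged -6.83 in naive cells, -5.64, -5.68, -7.45 and -6.74 in none, low, int and high cells on day 10, and -6.49, -4.70, -5.70 and -5.22 in none, low, int and off cells on day 30. With the mean of all probe sets of a gene these levels all moved by more than their SD, to -5.72, to -4.47, -4.46, -6.28 and -5.57, and to -5.17, -3.38, -4.38 and -3.88. The form relative to naive cells, which did not move so under that setting, was adopted after this had been seen. Replicate numbers did not pair the samples: deviations of arrays with the same number correlated by -0.138 to 0.117, and with the replicate block the correlation of Hspa1b with Hspa1a was 0.76. Among single genes and relations, 1318 alternative values kept their side of the threshold, 54 came under it and 39 left it. The cause was not tested.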
